A study of Mus musculus with 24 samples.

Results

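Interstitial lung macrophages that carried the Spp1-EGFP reporter signal were compared between day 14 and day 7 after bleomycin, with 3 libraries at each day, so 6 of the 24 libraries of the series. Both groups came from Spp1-EGFP knock-in mice that received intratracheal bleomycin at 3 µg per g of body weight, and both were sorted from lung as EGFP+ CD11b+ SiglecF- macrophages. The knock-in reports activity of the gene for osteopontin, a secreted matrix and cytokine-like protein, so every library was selected for cells with that signal. All 6 libraries were of bleomycin-treated mice, and a PBS group of this reporter-positive interstitial gate is not analysed here. The labels give neither the age nor the sex of the mice, nor whether the 3 libraries of a group came from separate mice, so the p-values measure only the spread between these libraries. Polyadenylated RNA was sequenced in bulk, and lower signal from fewer cells of a type cannot be told apart from less RNA per cell. Some levels are also set beside other groups of the series. Wild-type C57BL/6J interstitial macrophages, after PBS or bleomycin, were labelled CD11b+ SiglecF- with no EGFP gate. EGFP- interstitial macrophages after bleomycin, and EGFP+ CD11b- SiglecF+ alveolar macrophages after PBS or bleomycin, came from the knock-in mice.

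The 2 days were deposited in separate count tables, so day and table cannot be told apart. The comparison was made over the 40395 autosomal genes that had the same chromosome, start, end and strand in both tables, of 49022 gene IDs that the tables share. A further 4446 shared autosomal genes had other coordinates and were left out, among them Arg1, Cd74, Lyz2, Csf1r and Isg15. Total counts were 13993235 to 16262991 per library at day 14 and 15158909 to 16121010 at day 7, and the kept genes held 72.9 to 77.1% of them. Transcripts of sex-linked genes, which took no part in the tests, moved with the day. Xist, the noncoding RNA of the inactive X chromosome, was at 0 to 0.0615 CPM (counts scaled to the library total) at day 14 and at 639 to 739 CPM at day 7. Ddx3y, on the Y chromosome, was at 97.7 to 103 CPM at day 14 and at 0.62 to 9.96 CPM at day 7. Day, table and the sex-linked transcripts therefore cannot be told apart in any result below.

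Interstitial macrophages lie in the lung wall around airways and vessels rather than in the airspace. Some are long-lived residents that carry the mannose receptor Mrc1, the folate receptor Folr2 and, in part, the hyaluronan receptor Lyve1, and others derive from blood monocytes that enter injured tissue, lose monocyte genes such as Ly6c2 and acquire macrophage genes. Bleomycin injures the epithelium, and the lung passes through inflammation, macrophage recruitment and matrix deposition in the following weeks. Monocyte-derived macrophages of fibrotic lung are known for Spp1, Trem2, Apoe and other genes of lipid handling and the lysosome.

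The labels were checked against the genes that define the gate. Spp1 had 7664, 6385 and 4916 CPM at day 14, against 3751, 4373 and 3244 CPM at day 7, so the groups did not overlap (log2 fold change 0.74 ± 0.19, adjusted p = 0.0143 by edgeR's quasi-likelihood test, where ± is the standard error and p-values are adjusted by Benjamini-Hochberg over all genes tested). Without day 7 library 3 the adjusted p of Spp1 was 0.0726, without day 7 library 1 it was 0.062, and with library totals as the scaling it was 0.0661 (log2 fold change 0.52). Itgam, which encodes CD11b, had 339, 204 and 173 CPM at day 14, against 379, 335 and 335 CPM at day 7 and was not called (adjusted p = 0.0852). Without day 14 library 1 its adjusted p was 6.09e-05, and it was also called lower with DESeq2 (0.0361), with 9 or 24 libraries in the fit (0.0383 and 0.0211) and with the replicate block (0.0174). Siglecf had 2.45, 10.6 and 11.7 CPM at day 14, against 15.5, 14.003 and 13.3 CPM at day 7 and was not called, low at both days beside the sort on SiglecF- cells. The macrophage receptors Mertk and Fcgr1 and the lysosomal glycoprotein Cd68 were present in every library, and 4 of 6 tested pan-macrophage genes were called higher at day 14, or 2 with library totals as the only scaling.

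The libraries of day 14 differed more among themselves than those of day 7. The standard deviation of the log2 difference between 2 libraries was 0.548 to 0.747 among the day 14 pairs and 0.328 to 0.398 among the day 7 pairs, against 0.963 to 1.05 between the days. Of all tested genes, 77.6% had the larger standard deviation at day 14. Among 3573 called genes of 10 CPM or more at day 14, library 1 was farthest from the median of the 3 in 44.8%. Library 2 was farthest in 19.0% and library 3 in 36.2%. Mrc1 had 2870.0, 1616 and 865 CPM in day 14 libraries 1 to 3 and 324, 387 and 398 CPM at day 7, so the day 14 libraries lay above day 7 and far apart from each other. The haemoglobin scavenger receptor Cd163 had 55.4, 23.6 and 2.81 CPM at day 14 and 3.61, 1.64 and 2.15 CPM at day 7 and day 14 library 3 lay inside the day 7 range. The metallothionein Mt2 had 336, 168 and 64.3 CPM at day 14 and 40.8, 43.8 and 47.3 CPM at day 7. In the opposite order stood Fcrls, an Fc receptor-like scavenger gene, with 80.8, 193 and 388 CPM at day 14 and 18.2, 48.7 and 28.5 CPM at day 7, and the fractalkine receptor Cx3cr1, with 27.3, 147 and 228 CPM at day 14 and 38.9, 55.6 and 47.1 CPM at day 7. Cx3cr1 was not called over all libraries (adjusted p = 0.0982) and had an adjusted p of 0.000853 without day 14 library 1. Day 14 library 1 was thus the highest of the day 14 libraries for Mrc1, Cd163 and Mt2 and the lowest for Fcrls and Cx3cr1. Without that library Mt2 was not called (adjusted p = 0.0672, against 0.017 with it), nor without any single day 7 library (0.0505 to 0.051).

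Further members of the lists were split among the day 14 libraries, and these were picked after their values were seen. The coagulation factor gene F13a1 had 779, 327 and 137 CPM at day 14 and 291, 234 and 236 CPM at day 7, and the proteoglycan gene Vcan had 166, 71.3 and 20.1 CPM at day 14 and 192, 149 and 162 CPM at day 7. Lyve1 was low throughout, with 11.4, 5.51 and 0.913 CPM at day 14 and 2.45, 1.28 and 2.77 CPM at day 7. The elastase gene Mmp12 ran the other way, with 475, 1636 and 2697 CPM at day 14 and 1259, 1485 and 1355 CPM at day 7, as did the beta-glucan receptor Clec7a, with 614, 2226 and 3170.3 CPM at day 14 and 1499, 1545 and 1606 CPM at day 7. The receptor tyrosine kinase Axl had 296, 1104 and 1222 CPM at day 14 and 492, 574 and 562 CPM at day 7. For F13a1, Mmp12, Clec7a and Axl the day 14 values lay on both sides of the day 7 values. For Vcan library 1 lay inside the day 7 range and the other 2 below it. None of these genes was called, and Lyve1 was not called either.

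**Figure D1:**
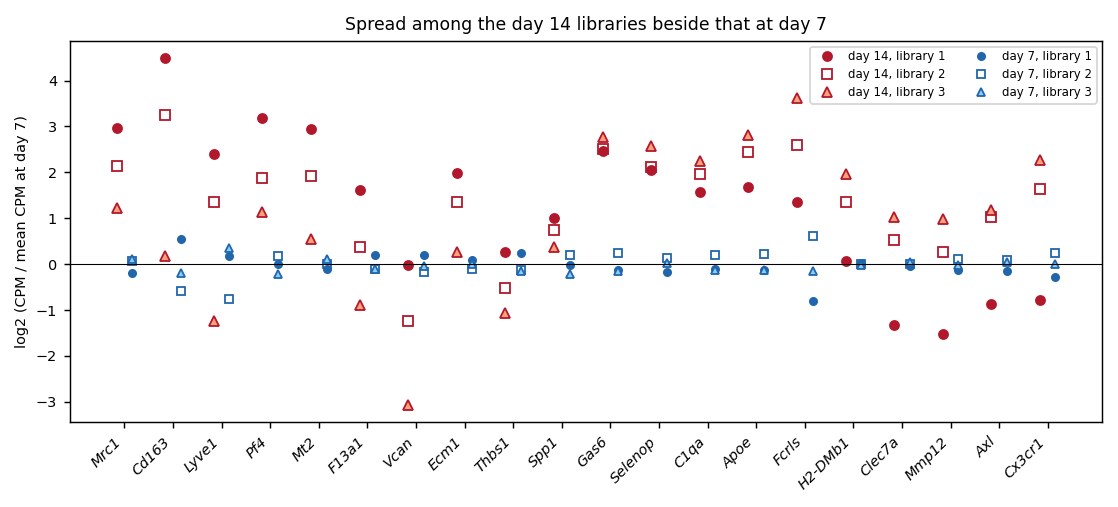
Level of 20 genes in each library, as the log2 ratio to the mean of the 3 day 7 libraries (y axis), with day 14 in red left of day 7 in blue for each gene and one marker shape per library number. The labels do not say that equal numbers pair across days. The genes were chosen and ordered by hand to show the spread. In this order day 14 library 1 (filled circles) is the highest day 14 library from Mrc1 to Spp1 and the lowest from Gas6 to Cx3cr1. Gas6, Selenop and C1qa stand clear of day 7 in all 3 day 14 libraries.

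Of 11427 genes tested, 2564 (22.4%) were called higher and 2722 (23.8%) lower at day 14 at an adjusted p under 0.05, and 535 (4.68%) and 1357 (11.9%) of them by at least 2-fold. The 3 libraries of day 14 and the 3 of day 7 did not overlap for 6723 genes (58.8%). The median log2 fold change was 0.02. These shares are the background for the counts of each gene group below. The balance between higher and lower depended on the scaling. By trimmed mean of M values, 48.5% of the called genes were higher. With library totals as the only scaling, 26.1% were higher (1291 higher and 3660 lower) and the median log2 fold change was -0.21. The 10 most abundant genes held 9.32 to 14.97% of the counts at day 14 and 6.94 to 7.39% at day 7.

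Among genes that overlap no gene model that was moved or listed in a single table, the 15 largest called rises included several genes of resident interstitial macrophages and of secreted proteins. Only genes whose day 14 and day 7 libraries did not overlap were eligible. Separation of the groups is thus part of the rule, here and for the largest falls. Ccl8, a monocyte-attracting chemokine (chr11:82115185-82116799, plus strand, GRCm38), had 38.2, 41.2 and 97.5 CPM at day 14, against 2.68, 2.98 and 1.53 CPM at day 7 (log2 fold change 4.62 ± 0.48, adjusted p = 0.000563). All 3 day 14 libraries lay far above day 7, and library 3 was the highest. Folr2, the folate receptor beta of resident tissue macrophages (chr7:101839988-101857194, minus strand), had 88.5, 50.8 and 57.7 CPM at day 14, against 5.13, 7.61 and 4.30 CPM at day 7 (log2 fold change 3.53 ± 0.29, adjusted p = 0.000145). The groups were separate, as the rule required, with day 14 library 1 the highest.

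Gas6, the ligand of the Tyro3, Axl and Mertk receptors and a bridge to dying cells (chr8:13465374-13494490, minus strand), had 40.99, 42.7 and 50.7 CPM at day 14, against 6.87, 8.83 and 6.74 CPM at day 7 (log2 fold change 2.58 ± 0.15, adjusted p = 2.24e-05). Fcna, a secreted ficolin that binds carbohydrates and starts the lectin pathway of complement (chr2:25624666-25628030, minus strand), had 27.98, 30.3 and 23.2 CPM at day 14, against 4.72, 4.57 and 4.08 CPM at day 7 (log2 fold change 2.61 ± 0.15, adjusted p = 2.24e-05). For both genes the day 14 libraries lay within a narrow range of their own. C4b, the complement component cleaved by the classical and lectin pathways (chr17:34728380-34743882, minus strand), had 153, 105 and 192 CPM at day 14, against 25.2, 17.05 and 18.9 CPM at day 7 (log2 fold change 2.88 ± 0.25, adjusted p = 0.000191). Every day 14 library exceeded every day 7 library by a wide margin.

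Apoe, the apolipoprotein that carries cholesterol, had 14381, 24336 and 31710.1 CPM at day 14, against 4097, 5264 and 4136 CPM at day 7 (log2 fold change 2.38 ± 0.29, adjusted p = 0.000482). Its 3 day 14 libraries differed by more than the whole day 7 range and library 1 was the lowest. Hpgd, which inactivates prostaglandins, had 12.9, 38.5 and 44.5 CPM at day 14, against 3.79, 5.36 and 7.87 CPM at day 7 (log2 fold change 2.49 ± 0.50, adjusted p = 0.00674). The organic anion transporter Slco2b1 had 158, 92.4 and 65.2 CPM at day 14, against 17.2, 24.1 and 20.5 CPM at day 7 (log2 fold change 2.35 ± 0.33, adjusted p = 0.00155). Neither gene's groups overlapped, as the rule required. The platelet factor gene Pf4 had 341, 139 and 83.6 CPM at day 14, against 37.7, 43.04 and 32.7 CPM at day 7 (log2 fold change 2.31 ± 0.50, adjusted p = 0.00891) and was not called without a filter on low counts (adjusted p = 0.0622). The 15 also held Fcrls, Pianp, B3galnt1, Ephx1, Lilra5 and the immunoglobulin variable gene Igkv12-44. Without day 14 library 3 the adjusted p was 0.0578 for Pianp and 0.0508 for Lilra5. Without a filter on low counts it was 0.0807 for Pianp, 0.0781 for Lilra5 and 0.067 for Fcrls. Igkv12-44 had 18.3, 19.1 and 3.65 CPM at day 14, against 0.757, 2.19 and 3.62 CPM at day 7, and its adjusted p, 0.0232 over all libraries, was 0.113 without day 14 library 1, 0.0558 without library 2, and 0.0563 and 0.0656 without day 7 library 1 or 2.

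The largest falls were of another kind. Acod1, which makes the antimicrobial metabolite itaconate, had 11.1, 16.4 and 32.9 CPM at day 14, against 805, 583 and 596 CPM at day 7 (log2 fold change -5.04 ± 0.43, adjusted p = 0.00024). Nos2, the inducible nitric oxide synthase, had 1.51, 0.424 and 0.0702 CPM at day 14, against 18.5, 15.6 and 14.3 CPM at day 7 (log2 fold change -4.59 ± 0.55, adjusted p = 0.000771). Slfn4, an interferon-responsive myeloid gene, had 10.9, 6.99 and 13.6 CPM at day 14, against 560.4, 446 and 403 CPM at day 7 (log2 fold change -5.49 ± 0.27, adjusted p = 1.65e-05). For each of these the lowest day 7 library was far above the highest day 14 library. Hdc, the enzyme that makes histamine, had 9.92, 9.25 and 12.9 CPM at day 14, against 489, 349 and 369 CPM at day 7 (log2 fold change -5.23 ± 0.20, adjusted p = 2.94e-06). Il1f9, which encodes the IL-1 family cytokine IL-36 gamma, had 1.65, 1.34 and 2.81 CPM at day 14, against 133, 96.9 and 102 CPM at day 7 (log2 fold change -5.83 ± 0.25, adjusted p = 8.07e-06). The chitinase-like gene Chil1 had 1.01, 0.212 and 1.69 CPM at day 14, against 75.7, 53.5 and 56.01 CPM at day 7 (log2 fold change -5.98 ± 0.41, adjusted p = 9.57e-05). The 15 also included the neutrophil chemokine receptor Cxcr2, the siderophore-binding protein Lcn2, Asprv1, Mrgpra2b, G0s2, Upp1, Cstdc4, Sycp2 and the club cell gene Scgb1a1. Scgb1a1 was not called without day 14 library 1 (adjusted p = 0.0525).

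Genes that mark neutrophils fell as well, and this list holds Cxcr2 and Lcn2, named above among the largest falls. All 12 tested members of the neutrophil list were called lower, with a median log2 fold change of -3.44, and their summed level was 179.5, 184 and 266 CPM at day 14, against 3136, 2255 and 2385 CPM at day 7. S100a9 had 30.3, 18.8 and 59.1 CPM at day 14, against 996, 708 and 748 CPM at day 7. Csf3r, the receptor of the granulocyte growth factor, had 25.2, 50.1 and 74.8 CPM at day 14, against 572, 410.4 and 458 CPM at day 7. Ly6g, the defining surface marker, picked for that role, had 0.144, 0.0706 and 0.14 CPM at day 14, against 4.72, 3.29 and 1.87 CPM at day 7. At day 14 Ly6g was thus near 0, while S100a9 and Csf3r were not. Dendritic cell genes fell as well, 7 of 9 tested, with a summed level of 35.4, 42.2 and 77.04 CPM at day 14, against 176, 168 and 206 CPM at day 7. Flt3, the receptor that drives dendritic cell development, had 2.80, 1.13 and 1.76 CPM at day 14, against 20.7, 16.5 and 17.3 CPM at day 7. The part of these cell types in the falls of single genes was not tested.

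**Figure D2:**
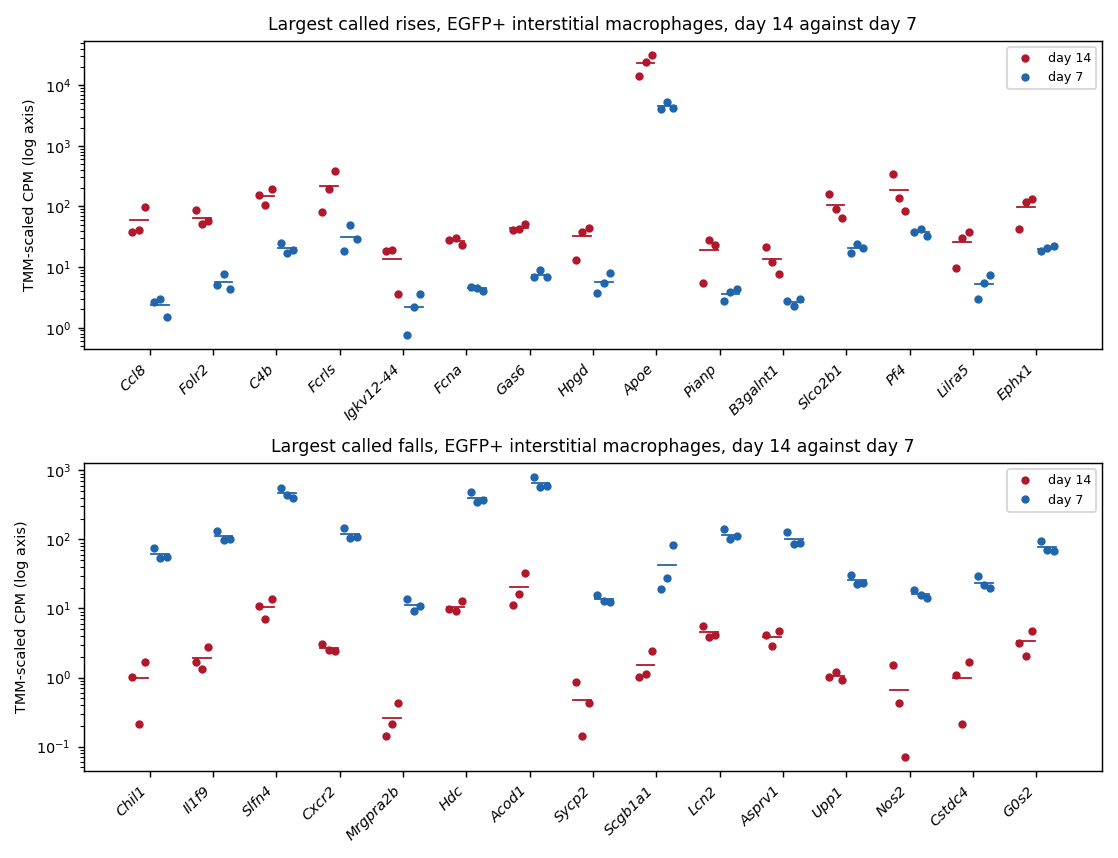
TMM-scaled CPM of each library (log axis) for the 15 largest called rises (top) and falls (bottom) among genes that overlap no gene model moved or listed in a single table; day 14 in red is left of day 7 in blue, points are libraries 1 to 3 and lines are means. Only genes whose groups do not overlap were eligible, so separate groups hold for all 30 genes by the rule.

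The list of resident interstitial macrophage genes had 11 of 19 tested members higher and 1 lower, with a median log2 fold change of 1.85. Selenop, which encodes a secreted selenium carrier, had 881, 922 and 1269.6 CPM at day 14, against 191, 233 and 217 CPM at day 7 (log2 fold change 2.26 ± 0.17, adjusted p = 6.02e-05). Cbr2, a carbonyl reductase, had 65.1, 55.5 and 59.1 CPM at day 14, against 12.8, 17.2 and 19.7 CPM at day 7 (log2 fold change 1.85 ± 0.16, adjusted p = 0.000107). Fcgrt, the neonatal Fc receptor that recycles IgG, had 146, 167 and 162 CPM at day 14, against 32.2, 43.1 and 41.9 CPM at day 7 (log2 fold change 2.02 ± 0.13, adjusted p = 3.61e-05). These 3 genes, with Gas6 and Folr2, stood apart from day 7 in every day 14 library. Selenop overlaps Ccdc152, a gene on the opposite strand with other coordinates in the day 14 table. Mrc1 was called too (log2 fold change 2.27 ± 0.41, adjusted p = 0.00427). The adjusted p of Cd163 was 0.0246, but 0.133 without day 14 library 1, 0.0749 without day 7 library 2 and 0.0774 without day 7 library 3. Maf, a transcription factor of resident macrophages, was not called. With each library left out in turn, 10 to 12 members were called higher.

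Of 13 tested genes that bind or signal dying cells 4 were called higher and 4 lower, or 2 higher with library totals as the scaling, shares near those of all genes tested (22.4% higher and 23.8% lower). Beside Gas6, the related bridge protein Pros1 had 124, 143 and 129 CPM at day 14, against 36.99, 46.3 and 46.3 CPM at day 7 (log2 fold change 1.61 ± 0.12, adjusted p = 5.74e-05). Their receptor Mertk had 260.1, 233 and 173 CPM at day 14, against 148, 144 and 141 CPM at day 7 (log2 fold change 0.62 ± 0.15, adjusted p = 0.00933). It was not called with library totals as the scaling (adjusted p = 0.0896). The integrin subunit gene Itgb3, whose protein binds the bridge Mfge8 and osteopontin, had 2.30, 2.33 and 2.53 CPM at day 14, against 9.32, 7.55 and 12.9 CPM at day 7 (log2 fold change -2.05 ± 0.24, adjusted p = 0.000411). Of 7 tested osteopontin receptor genes 4 were called lower, or 1 without day 7 library 1 and 2 without day 7 library 2 or 3, and 1 was called higher. The higher one, Itga9, had 19.5, 11.01 and 7.73 CPM at day 14, against 6.00, 4.08 and 5.44 CPM at day 7 (log2 fold change 1.30 ± 0.33, adjusted p = 0.0143), and without day 7 library 2 its adjusted p was 0.0571.

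Lysosome genes rose broadly, with 34 of 40 tested called higher (background 22.4%) and a median log2 fold change of 0.65. By role, 8 of 8 cathepsins, 11 of 12 other hydrolases and activators, 4 of 6 membrane proteins and 10 of 11 proton pump subunits were called higher. With library totals as the scaling 24 were called higher, with 6 proton pump subunits and 2 membrane proteins among them, and without day 7 library 3 24 were, with 6 proton pump subunits. The cathepsin A gene Ctsa, a carboxypeptidase that also protects beta-galactosidase, had 1232, 1453 and 1439.6 CPM at day 14, against 607, 657 and 654 CPM at day 7 (log2 fold change 1.10 ± 0.12, adjusted p = 0.000303). Lgmn, the asparaginyl endopeptidase that activates other lysosomal proteases, had 3205, 2579 and 2129 CPM at day 14, against 1162, 1167 and 1011 CPM at day 7 (log2 fold change 1.24 ± 0.17, adjusted p = 0.000772). Ctss, the cathepsin that trims the invariant chain of MHC class II, had 6285, 11658 and 11567 CPM at day 14, against 3954, 4429 and 4437 CPM at day 7 (log2 fold change 1.20 ± 0.24, adjusted p = 0.00398). None of these groups overlapped, and Ctss was lowest in day 14 library 1, where Lgmn was highest.

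Among the other hydrolases, Man2b1, an alpha-mannosidase, had 1063, 1512 and 1468 CPM at day 14, against 623, 603 and 619 CPM at day 7 (log2 fold change 1.13 ± 0.15, adjusted p = 0.000746). The ceramidase Asah1 had 479, 495 and 541 CPM at day 14, against 282, 307 and 304 CPM at day 7 (log2 fold change 0.76 ± 0.11, adjusted p = 0.000848). The main glycoprotein of the lysosomal membrane, Lamp1, had 1693, 2079 and 2096 CPM at day 14, against 1074, 1146 and 1112 CPM at day 7 (log2 fold change 0.82 ± 0.13, adjusted p = 0.00154). Atp6v0d2, a proton pump subunit of osteoclasts and macrophages, had 295, 437 and 333 CPM at day 14, against 109, 141 and 179 CPM at day 7 (log2 fold change 1.31 ± 0.21, adjusted p = 0.00175). Of 4 listed factors of the Tfeb family 3 were tested, and 1 was left out by the rule on genes. Among those tested, Tfec had 103, 114 and 100.1 CPM at day 14, against 55.6, 67.6 and 56.97 CPM at day 7 (log2 fold change 0.81 ± 0.11, adjusted p = 0.000753). Tfeb and Mitf were not called, with log2 fold changes of 0.18 ± 0.13 and 0.06 ± 0.09. Without day 14 library 1 the adjusted p of Tfeb was 0.036.

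Factors of the Tfeb family bind a palindromic promoter element of lysosomal genes that contains an E-box. Promoters of the list were searched for the letters CACGTGA on both strands, in windows of 250 bases before to 50 bases after the gene start (RefSeq, GRCm38.p6). The letters were found for 10 of the 27 called members in the table (37.0%), against 4.29% of all 27025 genes with a promoter. Of all 32 tested members in the table, called or not, 11 held them (34.4%). The share among called members was thus near that of the whole list. The 2 called members with the smallest p whose match lies before the start are printed over 60 bases, 5′ to 3′ in the direction of the gene, with every match within the stretch in capitals, to show where they lie. The Ctsa stretch is chr2:164833713-164833772 on the plus strand, where the palindrome TCACGTGA gives a match on each strand, the one nearest the start beginning 12 bases before it, and that of Lgmn is chr12:102439108-102439167 on the minus strand, with the match 50 bases before the start.
Ctsa: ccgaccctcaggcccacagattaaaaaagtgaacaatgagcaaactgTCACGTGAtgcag
Lgmn: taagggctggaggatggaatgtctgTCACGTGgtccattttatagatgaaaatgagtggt
In Lgmn the letters lie on the opposite strand and so read TCACGTG. A match describes the sequence only.

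Of 14 tested markers of lipid-associated macrophages 8 were called higher, or 4 without day 7 library 1 or 3 and 5 with library totals as the scaling. Fabp4, a fatty acid carrier, had 51.5, 47.2 and 34.4 CPM at day 14, against 17.01, 18.4 and 19.9 CPM at day 7 (log2 fold change 1.26 ± 0.16, adjusted p = 0.000549). Trem2, the lipid-sensing receptor that signals through Tyrobp, had 427, 542 and 755 CPM at day 14, against 198, 237 and 214 CPM at day 7 (log2 fold change 1.41 ± 0.20, adjusted p = 0.000991). Lpl, which releases fatty acids from lipoproteins, had 2701, 3265 and 3999 CPM at day 14, against 1873, 2048 and 2018 CPM at day 7 (log2 fold change 0.75 ± 0.16, adjusted p = 0.0063). All 3 were separate between the days. Gpnmb, a marker of the same state, was not called (log2 fold change -0.01 ± 0.20). Pltp, which moves phospholipid between lipoproteins, had 246, 333 and 368 CPM at day 14, against 78.8, 77.6 and 95.3 CPM at day 7 (log2 fold change 1.91 ± 0.17, adjusted p = 0.000112), alongside Apoe, and the other 6 tested genes of lipoproteins and efflux, Abca1 among them, were not called. Without day 14 library 1, 5 of these 8 genes and 11 of the 14 markers were called higher. The difference between the roles was not tested. Over all 29 tested lipid handling genes 13 were called higher, and 8 without day 7 library 3.

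Receptors for lipid uptake moved unequally. The HDL receptor Scarb1 had 116, 124 and 122 CPM at day 14, against 67.97, 67.2 and 67.6 CPM at day 7 (log2 fold change 0.84 ± 0.09, adjusted p = 0.000229). Cd5l, a secreted scavenger protein of macrophages, had 2.01, 4.17 and 6.95 CPM at day 14, against 1.05, 1.58 and 0.793 CPM at day 7 (log2 fold change 1.94 ± 0.48, adjusted p = 0.0109) at low levels. The oxidised LDL receptor Olr1 had 81.6, 167 and 129.7 CPM at day 14, against 319.8, 304 and 296 CPM at day 7 (log2 fold change -1.28 ± 0.23, adjusted p = 0.00321), lower in all 3 day 14 libraries. Of 17 tested genes of cholesterol synthesis and its control, 9 were called higher, among them Mvk, an early enzyme of the mevalonate pathway, with 19.8, 23.01 and 25.6 CPM at day 14, against 12.7, 13.2 and 14.4 CPM at day 7 (log2 fold change 0.76 ± 0.13, adjusted p = 0.00232). Dhcr7, which makes cholesterol in the last step, with 33.01, 54.9 and 67.1 CPM at day 14, against 21.7, 25.6 and 29.4 CPM at day 7 (log2 fold change 1.02 ± 0.25, adjusted p = 0.0132). That count was 15 without day 14 library 1, 4 without library 2 and 5 without library 3 of day 14, 3 to 4 without a day 7 library, and 4 with library totals as the scaling.

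Nuclear genes of the respiratory chain rose together, with 17 of 18 tested called higher and a median log2 fold change of 0.71. Sdhc, an anchor of complex II, had 139, 136 and 146 CPM at day 14, against 75.3, 80.1 and 74.5 CPM at day 7 (log2 fold change 0.87 ± 0.09, adjusted p = 0.000231). Ndufa4, a subunit of complex IV, had 62.998, 50.9 and 62.3 CPM at day 14, against 28.2, 28.7 and 28.9 CPM at day 7 (log2 fold change 1.04 ± 0.11, adjusted p = 0.000252). The day 14 libraries were close to each other for both genes. With library totals as the scaling 12 were called higher. Of 13 tested genes of ribosomal proteins and protein synthesis, 9 were called higher, such as Rplp0 with 1766, 1620.1 and 2108 CPM at day 14, against 1085, 1110.4 and 1060.0 CPM at day 7 (log2 fold change 0.76 ± 0.13, adjusted p = 0.00245). These levels exceeded day 7 in every library of day 14. Of 12 tested glycolysis genes 3 were called higher and 3 lower, and the higher count was 5 without day 14 library 3, 1 without day 7 library 3 and 1 with library totals as the scaling. Slc16a3, the lactate exporter, had 252, 199 and 165 CPM at day 14, against 503, 407 and 417 CPM at day 7 (log2 fold change -1.11 ± 0.17, adjusted p = 0.00124). Tpi1, a glycolytic isomerase, had 514, 401 and 329 CPM at day 14, against 216, 229.8 and 219.9 CPM at day 7 (log2 fold change 0.90 ± 0.16, adjusted p = 0.00242). Both genes were separate between the days, in opposite directions. Hypoxia targets were split, with 2 of 5 tested called higher and 3 lower. The higher count was 0 with library totals as the scaling and without day 7 library 2 or 3. Bnip3 was one of the higher genes (adjusted p = 0.0178, or 0.0609 with library totals as the scaling). Egln3, the oxygen-sensing hydroxylase induced in hypoxia, had 2.45, 1.91 and 1.33 CPM at day 14, against 15.2, 13.3 and 10.02 CPM at day 7 (log2 fold change -2.76 ± 0.26, adjusted p = 0.000156). Hif1a had 247, 263 and 237 CPM at day 14, against 398, 383 and 382 CPM at day 7 (log2 fold change -0.64 ± 0.10, adjusted p = 0.00135). Slc16a3 and Hif1a overlap gene models that differ between the tables.

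Of 5 tested genes of the classical pathway's first complex 4 were called higher. The remaining one, the protease gene C1s1, had 0.935, 0.212 and 0.140 CPM at day 14, against 1.28, 1.52 and 1.36 CPM at day 7 and was called lower (adjusted p = 0.047), but not without any single library other than day 14 library 1. C1qa, C1qb and C1qc, the 3 chains of C1q, had log2 fold changes of 1.96 ± 0.19, 1.78 ± 0.18 and 1.72 ± 0.16, with C1qc at 1541, 1549 and 2029 CPM at day 14, against 499, 582 and 472 CPM at day 7. C1ra, a protease of the C1 complex, had 37.3, 43.98 and 37.8 CPM at day 14, against 21.96, 29.7 and 21.1 CPM at day 7 (log2 fold change 0.71 ± 0.15, adjusted p = 0.00547). Cr1l, a membrane regulator, had 112, 116 and 110.3 CPM at day 14, against 74.4, 68.9 and 68.1 CPM at day 7 (log2 fold change 0.68 ± 0.09, adjusted p = 0.000674). The central component C3 had 77.3, 275 and 312 CPM at day 14, against 491, 383 and 432 CPM at day 7 and was not called (adjusted p = 0.125), with library 1 the lowest at day 14, and its adjusted p was 0.00274 without that library. C5ar2, a receptor for the fragment C5a, had 9.71, 9.46 and 8.78 CPM at day 14, against 15.5, 14.2 and 14.2 CPM at day 7 (log2 fold change -0.65 ± 0.13, adjusted p = 0.00405). In all, 8 of 16 tested complement genes were called higher, or 7 to 9 with each library left out. The 3 called lower became 5 without day 14 library 1 and 1 without day 14 library 2 or day 7 library 3.

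Of 6 tested Fc receptor genes 5 were called higher. Fcgr3, an activating IgG receptor, had 900.2, 988 and 1033 CPM at day 14, against 466, 493 and 444 CPM at day 7 (log2 fold change 1.06 ± 0.11, adjusted p = 0.00028). Fcgr2b, the inhibitory IgG receptor, had 726, 813 and 980.1 CPM at day 14, against 528, 522 and 498 CPM at day 7 (log2 fold change 0.70 ± 0.13, adjusted p = 0.00352). The count was 3 with library totals as the scaling and 3 without day 14 library 2, day 7 library 2 or day 7 library 3. C-type lectin receptors had 7 of 14 called higher and 3 lower, or 5 lower with library totals as the scaling. Clec4a2, an inhibitory receptor of the DCIR family, had 224, 206 and 258 CPM at day 14, against 109.7, 117 and 101 CPM at day 7 (log2 fold change 1.07 ± 0.12, adjusted p = 0.000317). Clec4e, the glycolipid receptor Mincle, had 377, 343 and 409 CPM at day 14, against 1141, 966 and 918 CPM at day 7 (log2 fold change -1.42 ± 0.13, adjusted p = 0.000145), the lowest day 7 library being above the highest of day 14.

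Of 12 tested enzymes of prostaglandin and leukotriene metabolism 8 were called higher, Hpgd among them, and 2 lower. Ptgs1, the constitutive cyclooxygenase, had 43.1, 61.8 and 78.4 CPM at day 14, against 24.5, 28.8 and 26.7 CPM at day 7 (log2 fold change 1.20 ± 0.20, adjusted p = 0.00227). Ptgs2, the inducible cyclooxygenase, had 301, 462 and 383 CPM at day 14, against 842, 749.6 and 778 CPM at day 7 (log2 fold change -1.05 ± 0.16, adjusted p = 0.00133). The groups did not overlap for either isoform, and the directions were opposite. Hpgds, which makes prostaglandin D2, had 53.4, 48.8 and 63.7 CPM at day 14, against 23.4, 26.2 and 21.9 CPM at day 7 (log2 fold change 1.21 ± 0.13, adjusted p = 0.000254). Tbxas1, the thromboxane synthase, had 279.7, 321 and 361 CPM at day 14, against 159.5, 179.5 and 164 CPM at day 7 (log2 fold change 0.94 ± 0.12, adjusted p = 0.000652).

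**Figure D3:**
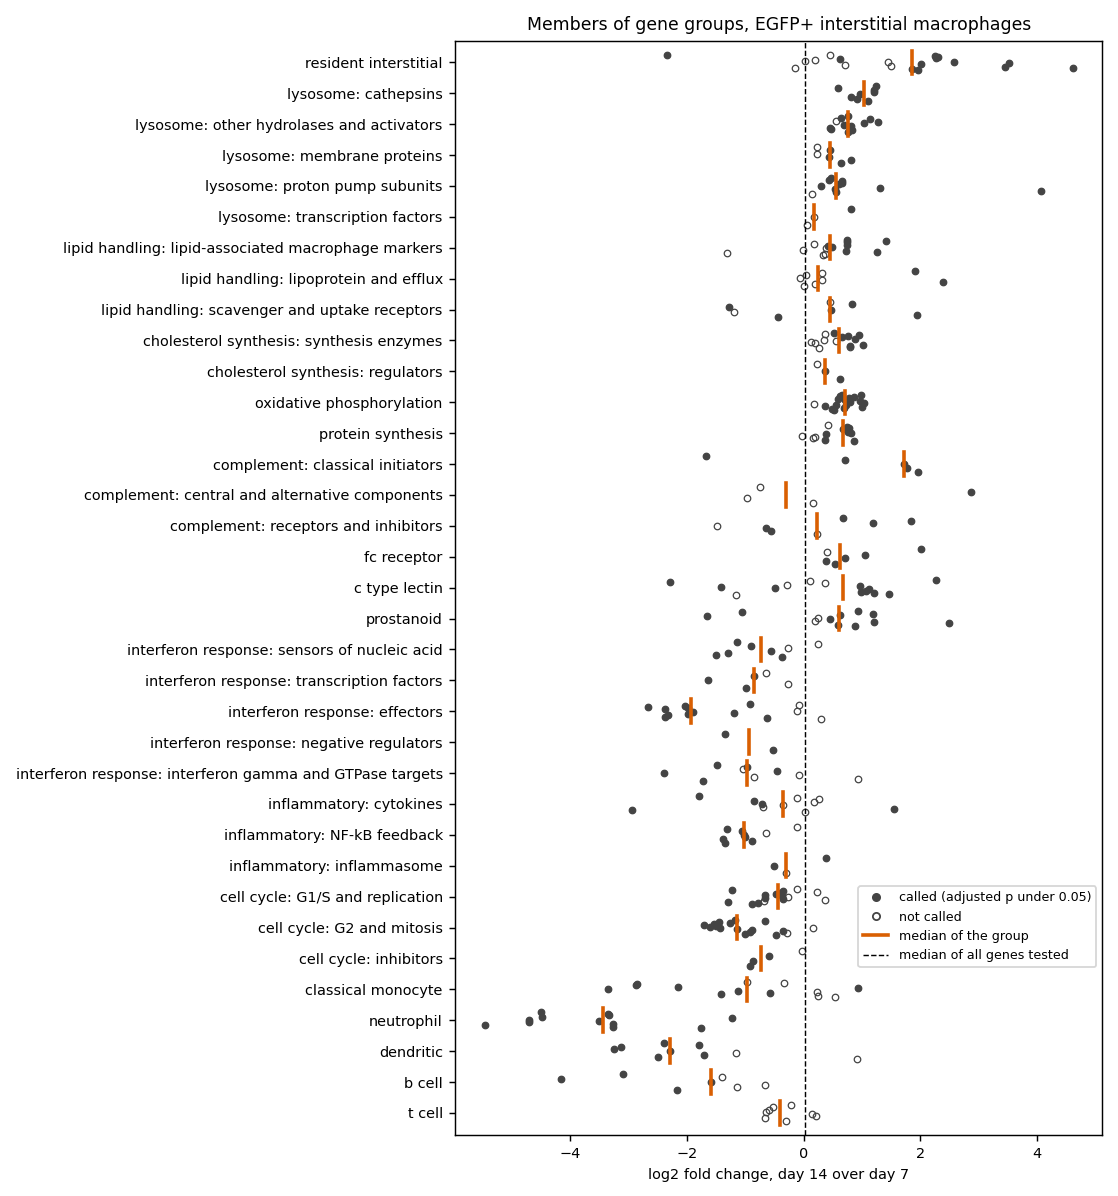
Log2 fold change at day 14 over day 7 (x axis) of the tested members of each gene group (rows); filled points are called at an adjusted p under 0.05, open points are not, orange bars are medians of the tested members and the dashed line is the median of all genes tested, 0.02. The medians of the lysosome, respiratory chain and classical complement rows lie to the right and those of the interferon, cell cycle and neutrophil rows to the left. With library totals as the scaling the median of all genes tested was -0.21.

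Interferon-response genes fell, with 27 of 38 tested called lower (background 23.8%) and a median log2 fold change of -0.98. Of the antiviral effectors 11 of 14 were lower, with a median of -1.94. Ifit1, which binds viral RNA, had 4.03, 6.78 and 10.2 CPM at day 14, against 41.8, 33.5 and 33.6 CPM at day 7 (log2 fold change -2.37 ± 0.29, adjusted p = 0.000668). Oasl1, of the oligoadenylate synthetase family, had 7.19, 7.69 and 12.1 CPM at day 14, against 66.98, 57.9 and 46.8 CPM at day 7 (log2 fold change -2.66 ± 0.22, adjusted p = 0.000119). The GTPase Mx1 had 8.20, 8.47 and 13.3 CPM at day 14, against 41.01, 37.6 and 32.6 CPM at day 7 (log2 fold change -1.89 ± 0.20, adjusted p = 0.000242). The groups stood apart, and in each of these genes day 14 library 3 was the highest of its day. The sensor of cytosolic DNA, Cgas, had 7.26, 7.98 and 7.44 CPM at day 14, against 23.9, 21.1 and 19.3 CPM at day 7 (log2 fold change -1.50 ± 0.14, adjusted p = 0.000132). The RNA sensor Ifih1 had 32.002, 39.3 and 40.4 CPM at day 14, against 79.5, 68.4 and 61.9 CPM at day 7 (log2 fold change -0.91 ± 0.13, adjusted p = 0.001).

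Among the factors that transmit the interferon signal, Irf7 had 39.8, 51.5 and 84.8 CPM at day 14, against 206, 189 and 153 CPM at day 7 (log2 fold change -1.64 ± 0.27, adjusted p = 0.00278). Irf9, a subunit of the complex that binds interferon-response promoters, had 31.6, 36.9 and 50.004 CPM at day 14, against 81.5, 70.3 and 62.1 CPM at day 7 (log2 fold change -0.85 ± 0.18, adjusted p = 0.00539). Usp18, which limits receptor signalling, had 5.03, 8.47 and 12.6 CPM at day 14, against 24.8, 22.6 and 19.1 CPM at day 7 (log2 fold change -1.34 ± 0.29, adjusted p = 0.00721). Of the GTPases and targets of interferon gamma, 5 of 9 were lower. Gbp5 had 5.97, 9.39 and 12.3 CPM at day 14, against 60.6, 43.3 and 42.1 CPM at day 7 (log2 fold change -2.40 ± 0.26, adjusted p = 0.000427). Irgm1 had 11.8, 27.4 and 25.7 CPM at day 14, against 68.4, 58.6 and 54.1 CPM at day 7 (log2 fold change -1.48 ± 0.29, adjusted p = 0.00571). Cxcl9, a target of interferon gamma, had 2.23, 12.99 and 36.4 CPM at day 14, against 7.81, 10.3 and 9.06 CPM at day 7 and was not called. The subunits of the type I interferon receptor, Ifnar1 and Ifnar2, had log2 fold changes of -0.49 ± 0.11 and -0.36 ± 0.10, and Ifnar2 was not called without day 14 library 2 (adjusted p = 0.0674), day 7 library 1 (0.085) or day 7 library 2 (0.0638). The count of lower interferon genes was 24 to 30 when each library was left out.

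The complex that holds Irf9 binds the interferon-stimulated response element. The letters searched were GAAA, any 2 bases, GAAA, on both strands of the same promoter windows. They were found for 13 of the 22 called interferon genes in the table (59.1%), against 3.99% of all genes with a promoter. Of all 31 tested interferon genes in the table, called or not, 17 held them (54.8%). The share among called genes was thus near that of the whole list. By role, all 5 called targets of interferon gamma, 6 of 9 called effectors and 2 of 4 called sensors held the letters. Of the called transcription factors 0 of 3 held them, and of the called negative regulators 0 of 1. The 2 called members with the smallest p whose match lies before the start are Gbp5 at chr3:142496744-142496803 on the plus strand and Ifit1 at chr19:34640779-34640838 on the plus strand, with every match within the stretch in capitals and the one nearest the start beginning 165 and 85 bases before it.
Gbp5: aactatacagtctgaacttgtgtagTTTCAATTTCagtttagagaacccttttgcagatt
Ifit1: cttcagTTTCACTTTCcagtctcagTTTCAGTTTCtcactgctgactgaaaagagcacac
The Ifit1 stretch holds 2 matches and that of Gbp5 holds 1, and all lie on the opposite strand and so read in reverse complement.

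Of 23 tested inflammatory genes 12 were called lower. Of 9 tested genes induced by NF-kB that feed back on it, 7 were called lower, with a median log2 fold change of -1.02. Nfkbiz, a nuclear inhibitor and co-activator, had 249.8, 294 and 289.7 CPM at day 14, against 814, 673 and 686 CPM at day 7 (log2 fold change -1.38 ± 0.13, adjusted p = 0.000139). Tnfaip3, the deubiquitinase A20, had 554, 659.6 and 656 CPM at day 14, against 1386, 1237 and 1255 CPM at day 7 (log2 fold change -1.05 ± 0.12, adjusted p = 0.000421). Of 11 tested cytokines, Tnf, Il12b, Lif and Il1rn were lower and Il18 was higher, and without day 7 library 1 Il1rn was not called (adjusted p = 0.0592). Tnf had 58.3, 98.9 and 92.2 CPM at day 14, against 329.6, 260.0 and 274 CPM at day 7 (log2 fold change -1.79 ± 0.20, adjusted p = 0.000385). Il18, an IL-1 family cytokine that needs cleavage by an inflammasome, had 32.3, 24.3 and 27.7 CPM at day 14, against 7.51, 11.4 and 9.74 CPM at day 7 (log2 fold change 1.56 ± 0.18, adjusted p = 0.00037). Il1b, Il6 and Il10 were not called, with log2 fold changes of -0.35 ± 0.25, 0.17 ± 0.37 and 0.02 ± 0.14.

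Ccl22, a ligand of Ccr4, had 6.47, 9.11 and 8.50 CPM at day 14, against 39.6, 39.1 and 57.3 CPM at day 7 (log2 fold change -2.50 ± 0.20, adjusted p = 7.75e-05). This gene is also on the dendritic cell list above. The other ligand of Ccr4, Ccl17, had 27.5, 22.8 and 23.2 CPM at day 14, against 77.4, 76.5 and 82.2 CPM at day 7 (log2 fold change -1.68 ± 0.11, adjusted p = 3.26e-05). Ccl3, a ligand of Ccr1, had 37.97, 54.7 and 66.9 CPM at day 14, against 162, 141 and 139 CPM at day 7 (log2 fold change -1.47 ± 0.19, adjusted p = 0.000731). Cxcl3, a ligand of Cxcr2, had 41.5, 30.6 and 29.1 CPM at day 14, against 204, 163 and 154 CPM at day 7 (log2 fold change -2.36 ± 0.17, adjusted p = 4.88e-05). Besides Ccl8, the abundant chemokines Ccl6 and Ccl9, picked for their level, were higher, with log2 fold changes of 0.81 ± 0.14 and 0.90 ± 0.16. The monocyte chemokine Ccl2 had 224, 84.9 and 63.6 CPM at day 14, against 140.3, 144 and 115 CPM at day 7 and was not called. Its day 14 library 1 lay above and the other 2 below day 7. Over the CC family 4 of 12 tested genes were called higher and 5 lower.

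Lists of iron, haem and antioxidant genes held calls in each direction, at shares not far from those of all genes tested. Slc7a11, the cystine importer, had 143, 193 and 164 CPM at day 14, against 792, 634 and 698 CPM at day 7 (log2 fold change -2.09 ± 0.15, adjusted p = 4.67e-05). Gpx3, a secreted glutathione peroxidase, had 34.95, 42.4 and 63.6 CPM at day 14, against 16.4, 19.7 and 18.2 CPM at day 7 (log2 fold change 1.38 ± 0.21, adjusted p = 0.00154). The cytosolic Gpx1 had 1155, 1178 and 1523 CPM at day 14, against 679, 759 and 699.7 CPM at day 7 (log2 fold change 0.85 ± 0.14, adjusted p = 0.00184). Slc40a1, the iron exporter ferroportin, had 1.73, 1.84 and 2.74 CPM at day 14, against 16.5, 13.3 and 12.9 CPM at day 7 (log2 fold change -2.76 ± 0.22, adjusted p = 7.85e-05). Blvra, which reduces biliverdin, had 92.4, 94.2 and 109 CPM at day 14, against 53.7, 59.3 and 47.1 CPM at day 7 (log2 fold change 0.88 ± 0.12, adjusted p = 0.000701). Each of these genes was separate between the days. Of 12 tested iron and haem genes 4 were called higher, or 2 without day 7 library 1 or 2 and 1 without day 7 library 3, and 3 lower, or 5 with library totals as the scaling. Of 14 tested antioxidant genes 4 were called higher, or 7 without day 14 library 1, and 5 lower, or 3 without any single day 7 library. The heat shock gene Hspa1b had 54.2, 30.003 and 14.96 CPM at day 14, against 278, 216 and 211 CPM at day 7 (log2 fold change -2.83 ± 0.43, adjusted p = 0.00234). Of 12 tested chaperones 5 were lower, or 9 with library totals as the scaling, and 2 were higher, or 1 with that scaling, without day 14 library 2 or without any single day 7 library. Their summed level was 8150.3, 8436 and 7427 CPM at day 14, against 7386, 7168 and 6963 CPM at day 7.

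Cell cycle genes fell, with 29 of 37 tested called lower. The G2 and mitosis genes had a median log2 fold change of -1.13 with 15 of 17 lower, against -0.44 with 11 of 16 lower for the genes of G1/S and replication. Mki67, the proliferation marker of chromosome surfaces, had 51.6, 54.9 and 42.7 CPM at day 14, against 149, 175 and 165 CPM at day 7 (log2 fold change -1.71 ± 0.12, adjusted p = 4.88e-05). Top2a, the topoisomerase that untangles chromosomes, had 22.01, 26.4 and 34.1 CPM at day 14, against 61.7, 85.1 and 78.04 CPM at day 7 (log2 fold change -1.45 ± 0.18, adjusted p = 0.000585). The spindle motor Kif11 had 6.18, 5.51 and 8.43 CPM at day 14, against 16.1, 22.3 and 18.3 CPM at day 7 (log2 fold change -1.49 ± 0.20, adjusted p = 0.000695). Each was lower in all 3 day 14 libraries. Kif11 overlaps Gm8663 and Gm46649, which are in the day 14 table only. Of the replication genes, Rrm2, which makes deoxynucleotides, had 10.2, 7.84 and 12.1 CPM at day 14, against 20.3, 28.2 and 22.3 CPM at day 7 (log2 fold change -1.23 ± 0.19, adjusted p = 0.00139). Mcm5, a part of the replicative helicase, had 24.7, 21.2 and 28.2 CPM at day 14, against 37.1, 44.9 and 34.997 CPM at day 7 (log2 fold change -0.66 ± 0.14, adjusted p = 0.00601). Pcna, the clamp of the replication fork, was not called (log2 fold change 0.22 ± 0.11). The inhibitors Cdkn1b and Btg2 fell as well, with log2 fold changes of -0.87 ± 0.10 and -0.91 ± 0.13. Without day 14 library 2, day 7 library 2 or day 7 library 3 the counts of lower genes were 18, 17 and 20, and the G1/S count was 4 in each case, or 7 without day 7 library 1.

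Promoters of genes expressed in G2 and mitosis are known for a cell cycle homology region. The letters TTTGAA on either strand were found in the promoter windows of 8 of 12 called G2 and mitosis genes in the table (66.7%), against 20.2% of all genes with a promoter. Of all 14 tested genes of this role in the table, called or not, 9 held them (64.3%). The stretches of Mki67 (chr7:135716443-135716502 on the minus strand) and Top2a (chr11:99024190-99024249 on the minus strand) are printed because these 2 had the smallest p among called members whose match lies before the start, with every match within the stretch in capitals and the one nearest the start beginning 98 and 23 bases before it. The Mki67 stretch holds 2 matches and that of Top2a holds 1.
Mki67: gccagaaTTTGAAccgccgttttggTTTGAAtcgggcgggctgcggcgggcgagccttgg
Top2a: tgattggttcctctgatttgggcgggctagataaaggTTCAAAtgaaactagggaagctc
In Top2a the match is on the opposite strand and reads TTCAAA.

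Genes of classical monocytes were lower in 7 of 13 tested and higher in 1, with a median log2 fold change of -0.96. Ly6c2, the surface marker of that subset, had 7.12, 8.05 and 17.1 CPM at day 14, against 122, 109 and 98.8 CPM at day 7 (log2 fold change -3.35 ± 0.32, adjusted p = 0.000385). Ms4a4c had 8.34, 13.9 and 20.9 CPM at day 14, against 75.9, 63.1 and 52.7 CPM at day 7 (log2 fold change -2.15 ± 0.31, adjusted p = 0.00175). The chemokine receptor Ccr2 had 242, 411 and 623 CPM at day 14, against 279, 304 and 296 CPM at day 7 and was not called, with day 14 library 1 below and the other 2 above day 7. Fn1 and Thbs1, the members with the highest mean at both days, were not called either (log2 fold changes 0.22 ± 0.14 and -0.33 ± 0.31). Of 10 tested nonclassical monocyte genes 4 were lower, or 2 without day 14 library 2, day 7 library 2 or day 7 library 3, and 2 were higher, or 1 without day 14 library 2 or 3 or day 7 library 1 or 3. Pglyrp1, a peptidoglycan-binding protein also found in neutrophil granules, had 1.65, 2.19 and 3.86 CPM at day 14, against 31.5, 21.005 and 25.5 CPM at day 7 (log2 fold change -3.33 ± 0.29, adjusted p = 0.000134).

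Of 20 tested transcription factors of macrophage identity 5 were called higher and 3 lower, beside 22.4% and 23.8% of all genes tested. The higher count was 8 without day 14 library 1, 2 without day 7 library 2, 3 without each of the others and 2 with library totals as the scaling. The lower count was 4 without day 14 library 1 and 5 with library totals as the scaling. Spi1, the factor required for the myeloid lineage, had a log2 fold change of 0.09 ± 0.10 and was not called. Runx3 had 37.7, 38.2 and 36.1 CPM at day 14, against 117, 95.3 and 102 CPM at day 7 (log2 fold change -1.49 ± 0.11, adjusted p = 4.65e-05). Klf4 had 535, 623 and 591 CPM at day 14, against 382, 386 and 388 CPM at day 7 (log2 fold change 0.60 ± 0.11, adjusted p = 0.00253). Cebpb had 257, 229 and 192 CPM at day 14, against 1406, 1488 and 1509 CPM at day 7 (log2 fold change -2.70 ± 0.14, adjusted p = 1.65e-05). In EGFP+ alveolar macrophages of the same pair of tables, Cebpb had a mean of 248 CPM at bleomycin day 14 and 1237 CPM after PBS. The log2 fold change there was -2.32 ± 0.11, and the part of the tables in either fall was not tested. The end of Tmem189 on the opposite strand overlaps Cebpb in both tables, and Tmem189 had 271, 271 and 236 CPM at day 14, against 653, 686 and 686 CPM at day 7 (log2 fold change -1.38 ± 0.11). The strand setting of the counting is not given in the sources used here, so reads of overlapping genes on opposite strands cannot be told apart. Mt2 and its antisense partner Gm45774 (333, 167 and 63.98 CPM at day 14, against 41.01, 43.96 and 47.6 CPM at day 7) are another such pair.

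Among growth factors and matrix genes, Pdgfc, a ligand of the PDGF receptors of fibroblasts, had 48.5, 49.98 and 46.98 CPM at day 14, against 15.4, 20.7 and 15.7 CPM at day 7 (log2 fold change 1.49 ± 0.13, adjusted p = 0.000124). Vegfa, the main endothelial growth factor, had 147, 205 and 162 CPM at day 14, against 429.9, 391 and 388 CPM at day 7 (log2 fold change -1.23 ± 0.14, adjusted p = 0.000346). Timp2, an inhibitor of metalloproteases, had 431, 561 and 512 CPM at day 14, against 177, 210.2 and 211 CPM at day 7 (log2 fold change 1.33 ± 0.13, adjusted p = 0.000217). These 3 genes were separate between the days. Tgfb1 was not called (log2 fold change -0.11 ± 0.16). Igf1 had 58.2, 154 and 227 CPM at day 14, against 64.5, 74.1 and 74.9 CPM at day 7, with day 14 library 1 below the day 7 range, and was not called (adjusted p = 0.0881). Of 23 tested genes of the matrix, its proteases and their inhibitors 3 were called higher, or 1 without day 7 library 1 or 3 and with library totals as the scaling, and 6 lower, or 3 without day 7 library 2 or 3. The matrix proteins alone had 2 of 13 tested called higher, or 0 with library totals as the scaling, and 3 lower. The lower ones included the collagen genes Col3a1 (1.01, 1.34 and 1.12 CPM at day 14, against 2.68, 3.35 and 6.97 CPM at day 7) and Col4a2 (2.09, 1.13 and 2.53 CPM at day 14, against 7.86, 4.93 and 7.70 CPM at day 7). Both were low beside the summed matrix proteins, at 17450 to 25969 CPM per library, and Col3a1 was also on the list of fibroblast markers.

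Markers of other cell types were lower at day 14 for some types and not others. B cell genes had a summed level of 30.3, 44.5 and 97.9 CPM at day 14, against 247, 1162 and 681 CPM at day 7, with 4 of 7 tested called lower. That count was 1 without day 14 library 1 and 2 without day 14 library 2, day 7 library 2 or day 7 library 3, and 7 with library totals as the scaling. The summed level of lung epithelium genes was 59.98, 39.4 and 33.99 CPM at day 14, against 75.1, 85.7 and 152 CPM at day 7, with 5 of 6 lower. T cell genes had a summed level of 39.8, 62.2 and 109 CPM at day 14, against 70.4, 97.3 and 90.6 CPM at day 7. The sums of the T cell genes overlapped between the days. The part of these markers in the other results was not tested.

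**Figure D4:**
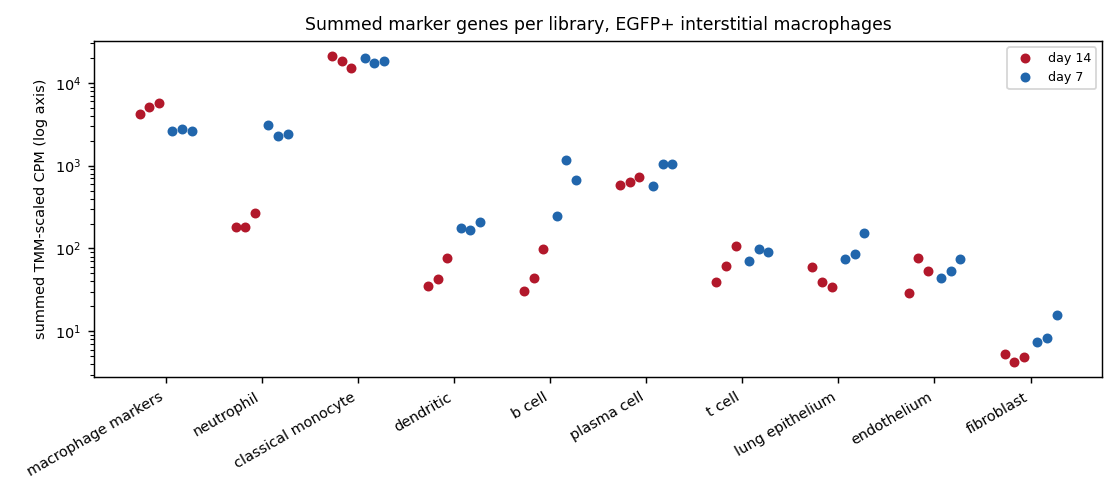
Summed TMM-scaled CPM of the marker genes of each cell type (log axis), with day 14 in red left of day 7 in blue and a point per library. Neutrophil sums are 179.5 to 266 CPM at day 14 and 2255 to 3136 CPM at day 7, while T cell sums overlap between the days.

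The 4 largest falls and the 2 largest rises of the comparison by the naming rule, and others, belonged to genes that overlap another gene model listed in only 1 of the tables, on the same strand. Chtf8 (chr8:106883863-106893601, minus strand) had 0.216, 0 and 0 CPM at day 14, against 92.1, 87.7 and 84.3 CPM at day 7, and Gm50241, which overlaps it, is in the day 14 table only. Septin2 (chr1:93478964-93510260, plus strand) had 0.503, 1.20 and 0.211 CPM at day 14, against 193, 189 and 182 CPM at day 7, with a second Septin2 model in the day 14 table only. In the other direction Trf, the gene of the iron carrier transferrin (chr9:103204001-103230444, minus strand), had 873, 1672 and 1882 CPM at day 14, against 8.45, 9.92 and 8.61 CPM at day 7, and Gm20425 overlaps it in the day 7 table only. Atp6v0c, a proton pump subunit (chr17:24163866-24169702, minus strand), had 482, 463 and 471 CPM at day 14, against 31.9, 28.98 and 23.7 CPM at day 7, with Gm43796 in the day 7 table only. Without Atp6v0c, 9 of 10 tested proton pump subunits were called higher. Wdr89, Rpl36al and Nnt fell and Wdr74 rose beside such models too, so 5 of the 15 largest falls and 3 of the 15 largest rises overlapped a model that differs between the tables. Over the 10578 tested genes with no such overlap, 22.4% were called higher and 23.5% lower.

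EGFP+ alveolar macrophages of day 14 after bleomycin and of PBS at day 7 lie in the same pair of tables and share no library with the interstitial comparison, so their values for the same genes are given beside it, without a test between the comparisons. Of 11509 genes tested there, 3033 (26.4%) were called higher and 3151 (27.4%) lower. The log2 fold changes in alveolar macrophages were -10.40 ± 0.22 for Chtf8, -8.53 ± 0.15 for Septin2, 5.59 ± 0.10 for Trf and 3.77 ± 0.11 for Atp6v0c, against -10.12 ± 0.35, -8.19 ± 0.32, 7.36 ± 0.35 and 4.07 ± 0.14 in interstitial macrophages. Of the 15 largest interstitial rises with no overlapping changed model 13 were tested in alveolar macrophages, with 8 called higher and 2 lower. C4b and Fcna were higher there, by 5.79 ± 0.19 and 5.35 ± 0.27, Gas6 was not called there (-0.35 ± 0.35). Lilra5 and Igkv12-44 were lower (-0.82 ± 0.08 and -3.60 ± 0.72). Of the 15 largest falls 11 were tested there, with 8 called lower and 1, Slfn4, higher (0.60 ± 0.21). The alveolar comparison also differs in treatment, and Xist was at 0 CPM in its 3 day 14 libraries and at 323 to 383 CPM in its 3 PBS libraries. Ddx3y was at 97.3 to 123 CPM in those day 14 libraries and at 79.2 to 80.8 CPM in those PBS libraries. The alveolar PBS libraries thus held both transcripts, whereas Ddx3y was at 0.62 to 9.96 CPM in the EGFP+ interstitial libraries of day 7.

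**Figure D5:**
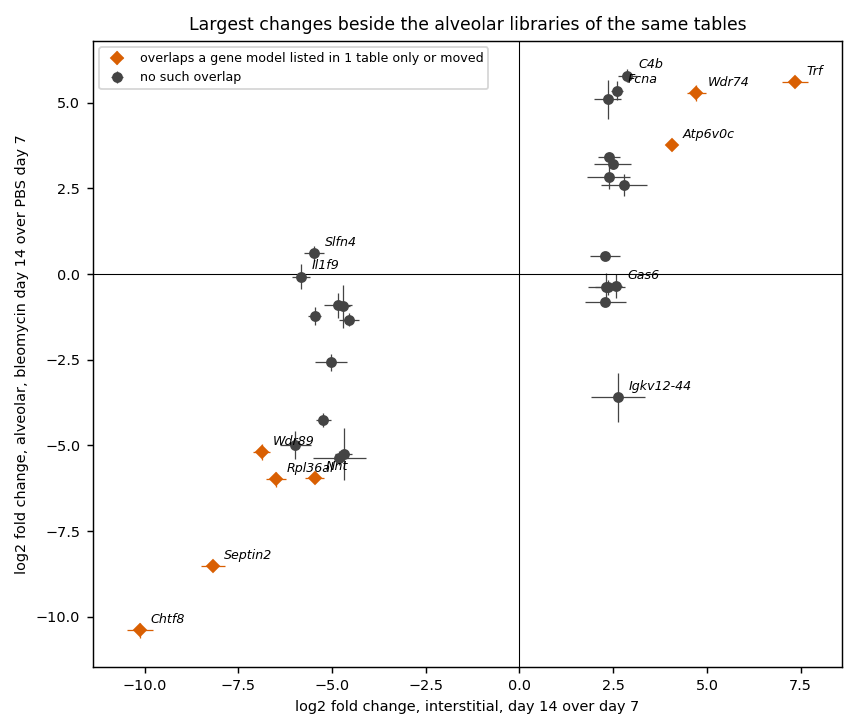
Log2 fold change in interstitial macrophages at day 14 over day 7 (x axis) and in alveolar macrophages at bleomycin day 14 over PBS day 7 (y axis) for the largest called interstitial changes that were tested in both; bars are standard errors, and orange diamonds are genes that overlap a gene model moved or listed in a single table. All 8 diamonds have the same direction in both comparisons. Points without such an overlap lie in all 4 quadrants, most of them with the same direction. Among these points 8 of 13 rises were called in the same direction in alveolar macrophages and 2 in the opposite. Of 11 falls 8 were called in the same direction and 1 in the opposite.

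Set beside the other groups, as CPM of the total count, the day 14 libraries lay at one end for some genes. The wild-type groups differ from the EGFP+ libraries in genotype, and their labels name no EGFP gate. Folr2 was at 45.9 to 87.9 CPM in EGFP+ interstitial macrophages of day 14, 4.71 to 8.25 CPM in those of day 7, 0.49 to 2.70 CPM in EGFP- cells of day 7, 8.24 to 13.2 CPM in wild-type bleomycin and 8.32 to 18.1 CPM in wild-type PBS interstitial macrophages. Its day 14 libraries were above all others, and wild-type PBS overlapped wild-type bleomycin. Gas6 was at 38.6 to 44.4 CPM in the day 14 and 7.36 to 9.57 CPM in the day 7 EGFP+ interstitial libraries, against 26.5 to 49.7 CPM in wild-type PBS interstitial macrophages, which overlapped day 14. C4b was highest in EGFP+ alveolar macrophages of day 14, at 181 to 283 CPM, followed by interstitial day 14 at 94.5 to 168 CPM, without overlap between these 2 groups. Mki67 was at 37.4 to 51.3 CPM in the day 14 EGFP+ interstitial libraries, the lowest of the 8 groups, and at 159.8 to 189 CPM at day 7, against 68.1 to 79.8 CPM in wild-type PBS interstitial libraries. The interferon-induced Oas2 was at 9.08 to 10.5 CPM at day 14 and 53.7 to 73.1 CPM at day 7 in EGFP+ cells, against 154 to 158 CPM in EGFP- cells of day 7 and 51.3 to 54.1 CPM after PBS in wild type. Xist was at 724 to 918 CPM in the EGFP- libraries and at 0.0660 to 0.367 CPM in the wild-type PBS libraries, so these levels too stand beside a difference in sex-linked transcripts.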

How the data were processed

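Libraries were of polyadenylated RNA from sorted lung macrophages. The deposited values are raw read counts per gene in 2 tables of the whole series, the day 7 table and the day 14 and 30 table, made by the authors. Per the submitters' processing notes the tools named were FastQC 0.11.5, Trimmomatic 0.38, HISAT2 2.1.0, SAMtools and featureCounts 1.6.3, with build GRCm38. The annotation release and strand setting are not given in the sources used here. A further 3 count columns match no sample and were not used.

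The tables were joined by gene ID over autosomal genes with the same coordinates. Counts were tested with edgeR 4.0.16 (R 4.3.3): a robust quasi-likelihood test on the 6 libraries, TMM factors, library size equal to the whole deposited total, filterByExpr, 2-sided, Benjamini-Hochberg over all genes tested, called at an adjusted p under 0.05. CPM values are TMM-scaled, except in the comparison of 8 groups and for Xist and Ddx3y, where the total count alone sets the scale. The standard error is the log2 fold change divided by the square root of F. The fit was tested on simulated data. Intervals and p-values cover these libraries only.

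Genes named are Spp1, Itgam and Siglecf, the 15 largest called changes each way at 10 CPM or more without overlap, the 4 tested members with the smallest p of each list role, and the 5 called genes with the largest day 14 spread. The rule for largest changes was also applied to genes with no overlapping model that differs between the tables, added after the data were seen. Some genes that these rules take are not reported here. Members described as not called, and F13a1, Vcan, Lyve1, Mmp12, Clec7a, Axl, S100a9, Ly6g, Ccl6, Ccl9, Tmem189 and Gm45774, were chosen after their values were seen. The comparison, the lists and the rules were chosen with earlier results of these data known. Alternatives were DESeq2 1.42.0 (size factors and Wald test), total count scaling, no filter, other libraries in the fit, all shared gene IDs, a replicate block and leaving out each library. The labels do not say that libraries of equal number pair across the days. The correlation of their deviations was 0.127, -0.0332 and 0.0481, against -0.122 to 0.127 over all pairs of a day 14 and a day 7 library. These values cannot settle whether equal numbers shared a batch.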

Additional observations from a re-analysis of the deposited data

How the results depend on the processing

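Of 269 named genes 235 were called, and 185 kept their call under every alternative that tested them; the direction of none was reversed. The counts of genes called, 2564 higher and 2722 lower, were 2501 and 2763 with DESeq2 size factors, 2517 and 2766 with the DESeq2 Wald test, 2628 and 2941 with no filter on low counts, and 3236 and 3393 over all shared gene IDs. They were 2848 and 3385 with 9 libraries in the fit, and 3338 and 3895 with all 24. Without genes that overlap a gene with other coordinates they were 2327 and 2491. With library totals as the only scaling they were 1291 and 3660. With each library left out in turn they ranged between 1681 (without day 7 library 1) and 3030 (without day 14 library 1) higher, and between 2016 and 3228 lower. The labels do not say that equal replicate numbers pair, and a fit with the number as a replicate block gave 2330 higher and 2630 lower. The cause of these shifts was not tested. The alternative restricted to genes of the same length was not run, because the tables give no length. With 3 libraries a group, small fold changes of genes that vary among the day 14 libraries cannot be resolved.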
